A study of Drosophila melanogaster with 12 samples.

Results

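Chromosome 4 is the small dot chromosome of Drosophila melanogaster. The regions described here were all ATAC-seq peaks called on it in developing second (T2) legs, chosen by chromosome alone. There were 322 of 42015 peaks in Oregon R (OreR) and 286 of 44398 in eworo, which is 0.766% and 0.644% of the lists. OreR has a small and eworo a large naked valley, the trichome-free patch of the femur, and the strains were compared for gene expression and open chromatin while leg trichomes are specified. Pupae of both strains were reared at 25 °C and dissected 20 to 28 h after puparium formation (hAPF). Each strain gave 3 ATAC-seq and 3 RNA-seq samples of about 80 pupae each, and the eworo flies carried ebony[4] together with rough[1] and white ocelli[1], which OreR lacks. Legs were taken whole, so a value is a mean over epidermis, muscle, neurons, trachea and haemocytes, and fewer cells of a type and less RNA or open chromatin per cell cannot be told apart.

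The banded part of chromosome 4 is known as a region where heterochromatin and active genes lie interspersed. Heterochromatin protein 1 (HP1a) and the histone methyltransferase Eggless coat much of it, yet its genes are transcribed about as well as genes elsewhere, and the RNA-binding protein Pof binds their nascent transcripts. ATAC-seq marks DNA that the Tn5 transposase can enter, and peaks usually lie at promoters and enhancers.

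One peak list was called per strain on the pooled tags of 3 samples, 56972082 tags in OreR and 53862732 in eworo after filtering, so no peak value has a replicate error. Intervals given for peaks cover counting error within a list, and no test was made between the lists. The pileup is the number of 50-base tags stacked at a peak's summit. With at most 1 tag per position on each strand it could not exceed 100, and over the whole lists it ran from 41 to 100 in OreR and from 39 to 100 in eworo. All 6 leg markers (Dll, dac, hth, Antp, bab2 and Sp1) had a mean above 1 FPKM (fragments per kilobase, scaled by library size), and so did all 3 epidermal, 5 muscle, 5 neuronal, 3 tracheal and 3 fat body markers and 3 of 4 haemocyte markers. The summed muscle markers ranged from 141 to 204 FPKM in OreR and from 105 to 180 in eworo, and the 3 wing markers from 30.5 to 167 and from 28.5 to 38. The part of these cell types in the results below was not tested.

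Peaks were sparser on chromosome 4 than on the large arms. In OreR chromosome 4 held 243.9 peaks per Mb (exact Poisson 95% interval 218.0 to 272.1), against 339.8 on 2L, 315.4 on 3L and 309.5 on 3R. In eworo it held 216.6 per Mb (192.3 to 243.3), against 359.0, 331.6 and 326.0. The density was thus 0.762 times that of the 3 arms together in OreR (95% interval 0.681 to 0.851) and 0.642 times in eworo (0.570 to 0.722). The length of chromosome 4 and of each arm was taken up to its last peak or gene locus. The 3 arms were also tiled with 62 windows of 1.32 Mb, the length of chromosome 4 so taken. The median window held 470.5 OreR peaks, and 8 windows held no more than the 322 of chromosome 4. In eworo the median window held 497.5 peaks and 7 windows held no more than 286. Of these sparse windows, 7 of 8 and 7 of 7 were among the 5 next to the centromere on their arm. Chromosome 4 also has fewer genes, 60.6 protein-coding genes per Mb against 97.5 to 113 on the arms.

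**Figure D1:**
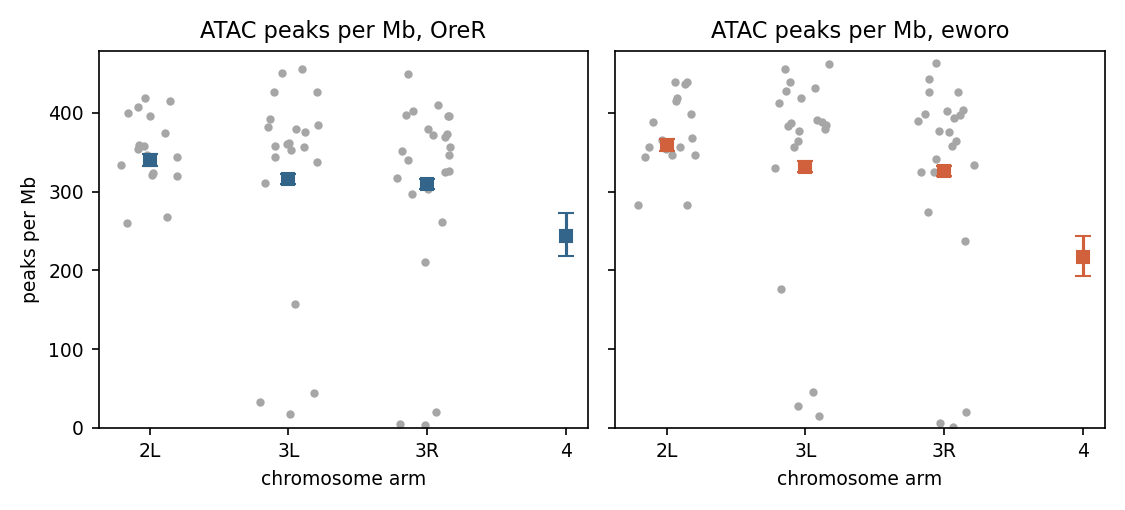
Peaks per Mb on each chromosome arm in OreR (left) and eworo (right). Squares are the arm's density with its exact Poisson 95% interval and grey points are windows of 1.32 Mb. Chromosome 4 lies at 243.9 and 216.6 peaks per Mb, below the 3 arms (309.5 to 359.0) but above the emptiest windows.

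This deficit depended on how strict a peak had to be. Among peaks with a −log10 q of at least 10 the ratio to the arms rose to 1.10 in OreR and 1.02 in eworo, since 24.5% of the chromosome 4 peaks of OreR but 16.7% to 17.5% of those on the arms passed that limit. Counted by pileup instead, the deficit stayed. Chromosome 4 held 105 OreR peaks per Mb with a pileup of at least 60, against 170 to 176 on the arms, and 97.7 eworo peaks per Mb against 162 to 168.

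These measures part because the peak caller scores a pileup against a background, which is the larger of a genome-wide value and a local value over 10000 bp. The genome-wide value was 23.7 tags in OreR and 22.4 in eworo. In OreR the local background exceeded it at 17.1% of chromosome 4 peaks (Wilson 95% interval 13.4 to 21.6), against 65.8% on 2L, 67.2% on 3L and 72.2% on 3R. In eworo the share was 16.4% (12.6 to 21.2) against 62.1%, 63.6% and 69.7%. Among windows with at least 50 peaks, 1 of 57 had so low a share in either strain. The windows with fewer peaks, all next to the centromere on 3L and 3R, had shares as low or lower. These ran from 0% to 13.64% in OreR and from 0% to 16.22% in eworo, so a low local background was not particular to chromosome 4. The surroundings of peaks on chromosome 4 were therefore poorer in tags than those on the arms in both strains. How well reads could be placed in its repeats was not tested.

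Peak heights differed less than background did. The median pileup of the 322 OreR peaks was 56.5 (95% interval of the median 54 to 59), below the 60 to 61 of the arms, and 3 of 57 windows had a median that low. The median pileup in eworo was 58 (56 to 60), inside the 58 to 60 of the arms. Very high peaks were scarce, with a pileup of at least 80 at 6 OreR peaks (1.86%) and 11 eworo peaks (3.85%), against 8.0% to 8.37% and 6.84% to 7.46% on the arms. Fold enrichment, the ratio of pileup to background, was in contrast higher on chromosome 4. Its median was 2.26 in OreR (2.18 to 2.35) against 2.12 to 2.14 on the arms, and 2.47 in eworo (2.35 to 2.56) against 2.18 to 2.19. The median peak was 145 bp long in OreR (131 to 160) and 153.5 bp in eworo (138 to 169), and the arms gave 139 to 144 bp and 137 to 141 bp. In eworo 2 of 57 windows had a median length of 153.5 bp or more.

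**Figure D2:**
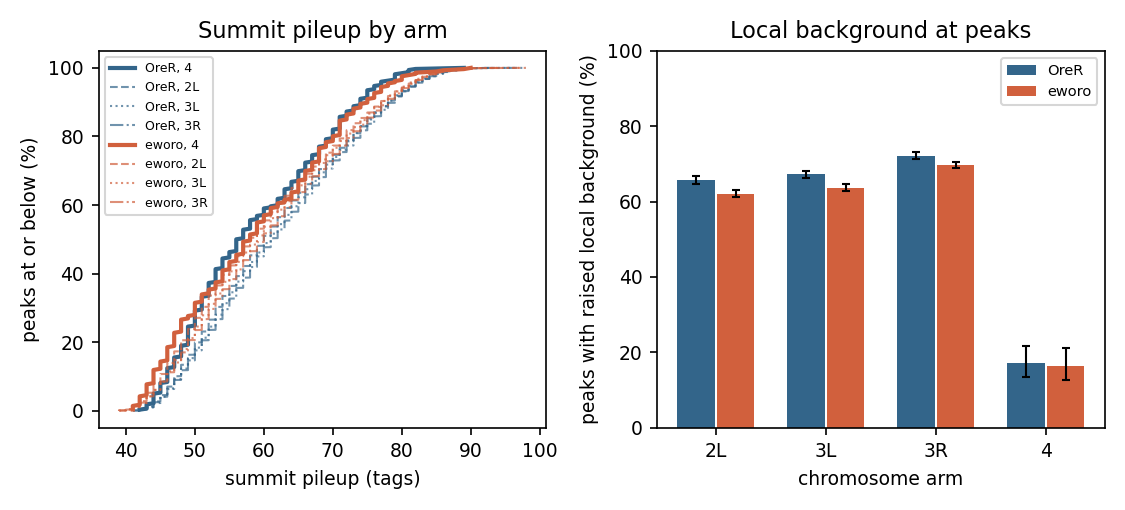
Left, the percent of peaks at or below each summit pileup (tags) for chromosome 4 (thick lines) and arms 2L, 3L and 3R in both strains. Right, the percent of peaks whose local background exceeded the genome-wide value, with Wilson 95% intervals, which was 17.1% and 16.4% on chromosome 4 and 62.1% to 72.2% on the arms.

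The tallest and longest OreR peak (4:506791-508781, 1991 bp, pileup 89) lay inside zfh2, a zinc-finger homeodomain gene known from proximal wing development. Its eworo counterpart (4:506814-508753, 1940 bp) reached 85. A second peak at the boundary of zfh2 (4:501416-501924 in OreR) had a pileup of 79 in OreR and 80 in eworo. Another lay inside the gene (4:527546-528424, 879 bp), at 73 and 75. The other tall peaks of OreR lay inside ey, an eye-selector Pax6 gene (81, and 82 in eworo), and at the boundary of its paralogue toy (80 and 79). Tall boundary peaks lay also at Gyf (82 and 80), CG31998 (81 and 80), Arl4, an Arf-like GTPase gene (79 and 76), and Rnf11 (79 and 71). A peak of 521 bp at 4:68606-69126, 565 bp from pan, the TCF transcription factor of Wnt signalling, reached 79 in OreR and was called as a pair of peaks of 71 and 61 in eworo. In eworo a peak inside ci, the transcription factor of Hedgehog signalling (4:56275-56630), reached 86 against 78 in OreR. One inside Sox102F (4:832968-833241), a Sox family gene, reached 80 against 79. The long OreR peak next to Tdg (4:557762-558519, 758 bp, pileup 74) faced a pair of 75 and 59 in eworo. These heights belong to 1 list per strain, and no difference between them was tested.

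The 48.4 kb from the last protein-coding gene to the last peak or gene locus in these data held 10 OreR peaks and 12 eworo peaks. The median pileup there was 56.5 in OreR and 65.5 in eworo. The tallest eworo peak of the chromosome (4:1295054-1295324) reached 90 here and 71 in OreR. At 4:1278807-1279432 eworo had a peak of 81 where OreR had a pair of 51 and 56. The peak at 4:1305775-1306940, 1166 bp long with a pileup of 82, met no OreR peak. The outermost peak was high in both (89 in eworo, 81 in OreR). Of these peaks 6 of 10 in OreR (60%, 31.3 to 83.2) and 5 of 12 in eworo (41.7%, 19.3 to 68.0) overlapped a peak of the other strain, against 78.8% and 91.2% on the rest of the chromosome.

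Sharing was scored where a peak overlapped a peak of the other strain by at least 1 bp. In OreR 252 of 322 chromosome 4 peaks were shared, 78.3% (Wilson 95% interval 73.4 to 82.4), below the 86.1% to 86.8% of the arms. In eworo 255 of 286 were shared, 89.2% (85.0 to 92.3), above the 81.5% to 82.4% of the arms and above all 57 windows, whose highest was 87.8%. The list lengths ran the same way. Chromosome 4 had 0.888 times as many peaks in eworo as in OreR (95% interval 0.755 to 1.05), while the arms had 1.05 to 1.06 times as many and X 1.12 times. Y, with 23 OreR and 11 eworo peaks, had 0.478 times as many. Where an overlap of 50% of each peak was asked for, the OreR share on chromosome 4 was 74.2% and those on the arms were 74.1% to 75.1%, so the deficit in OreR was not seen. It was seen with summits within 100 bp (73.3% against 77.5% to 78.7%). The eworo share remained above the arms (83.6% against 70.1% to 71.3%). At a −log10 q of at least 10 in both lists the eworo share was 71.6% against 68.2% to 72.2%, and the eworo excess was not seen, while the OreR share was 86.1% against 90.3% to 91.0%. The number of peaks at that limit was 1.2 times higher in eworo (79 and 95 peaks).

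The 70 unshared OreR peaks were weak and short. Their median pileup was 47.5 (46 to 49) and their median length 72.5 bp, against 61.5 (58 to 64) and 166.5 bp for the shared ones. Of the 70, 4 had a pileup of at least 60. The tallest lay inside unc-13, a synaptic vesicle priming gene (4:910176-910298, pileup 69), and inside Kif3C and CG32017 (4:1155058-1155478, 64). The 31 unshared eworo peaks had a median pileup of 47 (43 to 52), and 5 reached 60. Of these 5, 4 lay past the last protein-coding gene, and the other lay at CG1674 (4:245520-245732, pileup 60). On the arms unshared peaks had like medians, 49 to 50 in OreR and 47 to 49 in eworo.

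Shared peaks matched closely in height. Pileups ran only from 41 to 100 in OreR and from 39 to 100 in eworo over the whole lists, which limits how far a pair can differ. Over 250 best-matching pairs the median log2 ratio of pileup, eworo to OreR, was −0.04 (95% interval −0.05 to −0.02), against −0.02 on each arm. The eworo peak was higher in 30.8% of pairs and the OreR peak in 60.4%, with ties between. The pairs lay around this ratio with quartiles of −0.12 and 0.02, and 1 pair differed by more than 0.5 (0.4%, against 0.136% to 0.181% on the arms). That pair was the one at 4:1278807-1279432 described above (log2 ratio 0.67). Across pairs Spearman's rho was 0.888 on chromosome 4 and 0.911 to 0.915 on the arms, given as a description of pairs from the same lists.

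**Figure D3:**
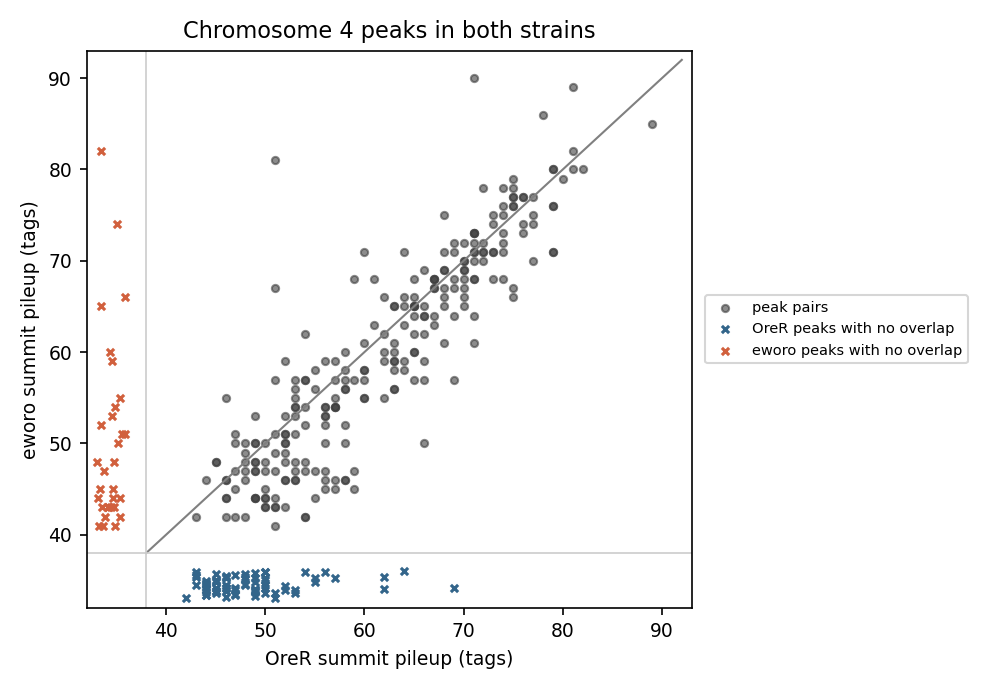
Summit pileup (tags) of the 250 chromosome 4 peak pairs in OreR (horizontal) and eworo (vertical), with the line of equal height. Crosses in the margins are the 70 OreR and 31 eworo peaks that overlapped no peak of the other strain, most of them below a pileup of 60.

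Peaks were next placed against protein-coding genes. The annotation used here gives no strand, so a gene's start and end could not be told apart and both are called its boundaries. In OreR 100 summits (31.1%, 26.3 to 36.3) lay within 500 bp of a boundary of a protein-coding gene, 166 (51.6%) elsewhere inside a gene locus and 56 (17.4%) outside. In eworo the numbers were 99 (34.6%, 29.3 to 40.3), 133 (46.5%) and 54 (18.9%). The arms gave 32.4% to 36.5% at boundaries, 47.4% to 48.4% inside and 15.9% to 19.7% outside. These shares overlapped, but the sequence available to each class did not. Genes on chromosome 4 had a median length of 10090 bp, against 1986 to 2130 bp on the arms, and boundary zones made up 11.0% of its bases against 14.1% to 16.1%. The share of peaks at boundaries was 2.83 times the share of bases in OreR and 3.15 times in eworo, above the 2.01 to 2.39 times of the arms. Such a ratio of shares also rises where peaks elsewhere on the chromosome are few. It does not show that boundaries held more peaks than those of the arms, and peaks per Mb of boundary zone were not computed. Peaks inside loci stood at 0.696 and 0.628 times their share of bases, below the 0.768 to 0.852 of the arms. Peaks outside genes stood at 1.17 and 1.27 times, against 0.674 to 0.720. A single gap of 41.4 kb between dati and lgs, described below, held 23 OreR and 21 eworo peaks. Most of its OreR peaks are among the 56 outside genes, and the ratios without this gap were not computed.

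**Figure D4:**
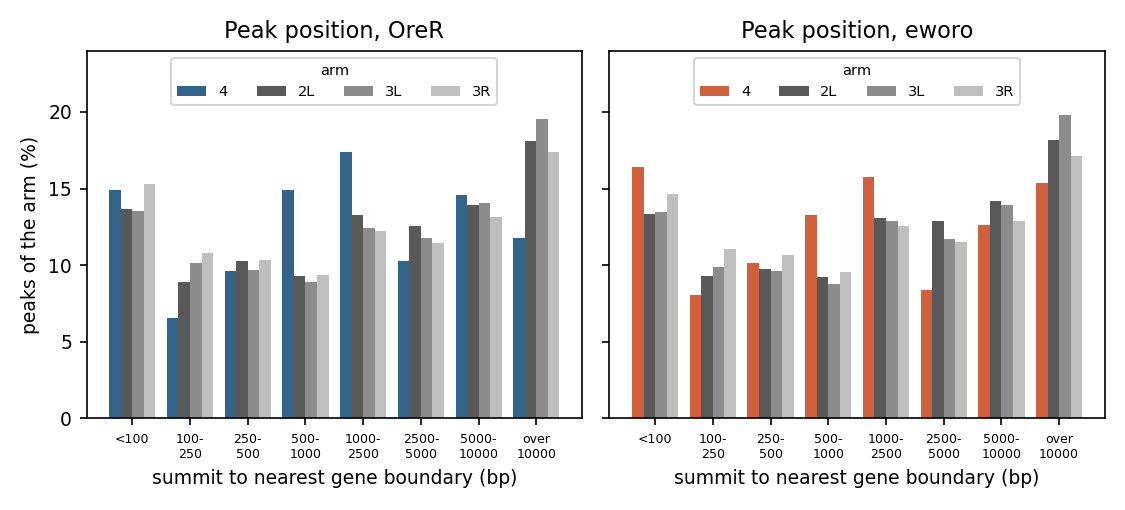
Percent of peaks by the distance in bp from the summit to the nearest boundary of a protein-coding gene, for chromosome 4 (coloured) and arms 2L, 3L and 3R (grey) in OreR (left) and eworo (right). On chromosome 4, 14.9% and 16.4% of summits lay within 100 bp and 11.8% and 15.4% beyond 10000 bp, the latter below the 17.2% to 19.8% of the arms.

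Boundary peaks were the tall class. Their median pileup was 65 in OreR (63 to 68) and 64 in eworo (60 to 67), near the 64 to 65 and 62 to 64 of the arms. Peaks inside loci had medians of 53 (52 to 56) and 54 (51 to 58), where the arms had 59 to 60 and 57 to 59. Peaks outside genes had medians of 55.5 (51 to 58) and 56 (48 to 61), against 57 to 58 and 55 to 56 on the arms. In OreR 72.3% of inside peaks (65.0 to 78.5), 78.6% of outside peaks (66.2 to 87.3) and 88.0% of boundary peaks (80.2 to 93) were shared. In eworo the shares were 90.2%, 77.8% and 93.9%.

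Most genes had a boundary peak. Of 80 protein-coding genes 65 had a summit within 500 bp of a boundary in each strain (81.2%, Wilson 95% interval 71.3 to 88.3), above the 65.1% to 71.0% of the arms in OreR and the 66.7% to 72.4% in eworo. A mean above 1 FPKM in both strains was also commoner on chromosome 4 (58.2% of matched genes, against 43.3% to 50.1%). The shares with a boundary peak were not compared at like expression. A boundary peak was present in both strains at 64 genes, with dati in OreR alone and CG1674 in eworo alone. Both boundaries carried a peak at 8 genes (10.0%), against 17.1% to 18.5% on the arms. No interval was computed for this small count, and median gene length differed as well (10090 bp against 1986 to 2130 bp). Along whole genes peaks were thin, with 2.37 per 10 kb in OreR and 2.1 in eworo, against 3.78 to 4.32 on the arms. In 6 genes no peak was found in either strain. They were JYalpha, a sodium pump subunit gene, CG32006, dpr7, an immunoglobulin superfamily gene, RhoGAP102A, CG11155 and CG33521.

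Along the chromosome, the 13 full bins of 100 kb held 15 to 41 peaks in OreR and 15 to 40 in eworo. The densest bin in both strains ran from 400 to 500 kb and had the left boundary of 5 protein-coding genes. Part of this bin is the gap between dati, a zinc-finger gene, and lgs, the Legless cofactor of Wnt signalling. Its 41.4 kb (4:395606-436956) hold no protein-coding gene but 23 OreR peaks and 21 eworo peaks, of which 21 and 20 were shared. Their pileups ran from 45 to 71 (median 57) and from 41 to 69 (median 56). The first peak began at position 42974 in OreR and 42971 in eworo, with none before it. Several wide stretches without a peak were found in both strains. One of 42.6 kb (4:315383-358009 in OreR) lay within PMCA, a plasma membrane calcium pump, and Rnf11. Another of 38.9 kb (4:90000-128934) spanned pan and Ank, and one of 30.8 kb (4:1199624-1230465) spanned Mitf and Dyrk3. A gap from CG1674 to NfI was 31.9 kb in OreR (4:239302-271199) and 24.9 kb in eworo. A gap inside bt, which encodes the muscle titin-like protein projectin, was 28.4 kb in eworo (4:742973-771327), where OreR had 3 peaks.

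The 13 genes for transcription factors and their cofactors held 79 peaks in OreR (1 to 13 per gene over both strains, median 5) and 64 in eworo (median 2), and the 13 housekeeping genes 35 and 34 (median 2 in both). Sox102F held 13 peaks in both strains, dati 13 and 9, zfh2 10 and 12, ey 10 and 7, sv, the Pax gene shaven needed for bristle shafts, 8 and 7, pan 6 and 6, and toy 5 and 1. The first class had a median length of 18.2 kb and the housekeeping class 4.43 kb, and per 10 kb the order was turned (2.60 against 3.4 in OreR, 1.97 against 3.29 in eworo). All 13 housekeeping genes had a boundary peak in both strains, with median pileups of 71 and 68. Of the 6 neuronal genes 2 had one, namely mGluR, a glutamate receptor (63 and 56), and Cadps, a vesicle release factor (68 and 71). The Cadps peak (4:1230633-1230859 in OreR) lay nearer to Dyrk3, 16 bp from its boundary, and is the highest boundary peak of both genes. All 8 protein-coding signalling genes had one, from 66 to 76 in OreR and from 64 to 79 in eworo. Genes with more peaks in OreR than in eworo numbered 23, and 12 had more in eworo. The largest losses in eworo were at bt (13 and 7 peaks), toy, dati, ey, fuss (4 and 1) and PlexA, a semaphorin receptor (5 and 2), chosen after their values were seen.

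At boundaries of the transcription factor genes the taller peaks were close in height between the lists, and some of the lower ones were less so. The highest boundary peak of toy lay at 4:989445-989773 with a pileup of 80 in OreR and 79 in eworo. That of sv lay at 4:1088397-1088896 (76 and 77), that of Sox102F at 4:834085-834608 (75 and 77) and that of pan at 4:69266-69442 (76 and 73). Further such peaks were lgs at 4:443803-444041 (74 and 73), pho, a Polycomb recruiter, at 4:1181923-1182120 (70 and 70) and ey at 4:697571-697734 (69 and 67). Lower ones were NfI, a CTF/NF-I factor, at 4:276402-276616 (65 and 57), fd102C, a forkhead gene, at 4:844511-844755 (62 and 59), ci at 4:47240-47370 (56 and 46) and onecut, a cut-homeodomain gene, at 4:598049-598159 (46 and 42). For dati the boundary peak at 4:395812-395861 had 46 in OreR and none was called in eworo.

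Expression was read as FPKM, for which the read depth of each library is unknown. Of 114 chromosome 4 genes of the reference annotation 110 matched a value in all 6 RNA-seq libraries. In many cases the authors' assembly joined neighbouring genes into 1 entry, so 30 of the 79 matched protein-coding genes shared a value with a neighbour in at least 1 library. An exact 0 next to high values in other libraries, as below, can be a failed estimate and is given as listed at 0. A mean above 1 FPKM in both strains was seen for 64 of 110 genes (58.2%, Wilson 95% interval 48.8 to 67.0), against 43.3% on 2L, 49.0% on 3L and 50.1% on 3R. Among genes with entries of their own the shares were 53.7% (41.9 to 65.1) and 33.1% to 36.2%. The median of the expressed genes was 36.6 FPKM (27.2 to 43.3), against 26.7 to 29.7 on the arms. Over entries of their own it was 23.4 FPKM (13.1 to 32.2), an interval that holds the 18.8 to 20.9 of the arms.

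Housekeeping genes were the highest. RpS3A, a ribosomal protein gene, whose entry took in a snoRNA in some libraries, had 3480, 3520 and 3150 FPKM in OreR and 3920, 3200 and 4170 in eworo. ATPsynbeta, a subunit of mitochondrial ATP synthase, had 846, 815 and 847 FPKM in OreR and 967, 953 and 950 in eworo. Its entry was joined to an antisense RNA in part of the libraries and was not tested. The strains did not overlap for ATPsynbeta, as at 12.8% of all tested entries in that direction, and overlapped for RpS3A. Arf102F, an Arf GTPase gene, had 212, 214 and 228 FPKM in OreR and 232, 232 and 239 in eworo, also a joined entry in part of the libraries, and the strains did not overlap. ND-49, a complex I subunit, had 122, 123 and 108 FPKM in OreR and 135, 113 and 129 in eworo. CG31997, PIP4K, CG11155 and Arl4 had entries shared with a neighbour in some libraries. The authors' values were 107 FPKM in OreR and 132 in eworo for CG31997, 114 and 108 for PIP4K, and 98.8 and 103 for Arl4. For CG11155 they were 5.37 and 5.29, far below its means over libraries (74.9 and 156). For gw, which encodes the GW182 protein of miRNA silencing, the values were 115, 88.9 and 177 FPKM in OreR and 61.9, 122 and 88.6 in eworo.

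Means of the 13 transcription factor genes over 6 libraries ran from 0.0233 to 79.6 FPKM, the upper values being those of joined entries. For those with joined entries the authors' value per strain is given, for which no error is known, except for zfh2, which the authors' table splits over 2 loci and for which no value is given. It was 77.3 FPKM in OreR and 59.6 in eworo for ci, 53.6 and 52.7 for pho, 32.6 and 22 for lgs, and 8.58 and 6.87 for sv. For ey it was 0.223 and 0.193. With entries of their own, Sox102F had 20.2, 15.8 and 19.7 FPKM in OreR and 10.1, 21.9 and 13.8 in eworo. Pan had 10.3, 4.70 and 17.5 FPKM in OreR and 3.58, 15.8 and 6.52 in eworo. The groups overlapped for both. NfI had 0.392 to 3.38 FPKM over the 6 libraries and onecut 0.437 to 2.98. At most 0.298 FPKM was seen for toy, 0.0445 for fd102C and 0.808 for dati. Toy and ey, whose products specify eyes, carried boundary peaks with pileups of 67 to 80 in both strains, while the authors' values for both lay below 1 FPKM in each strain. For ey the entry of eworo replicate 3 was joined to CG11360.

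No chromosome 4 entry passed the test between strains. The test was limma on log2(FPKM + 1) over the 4848 entries named alike in all libraries with a mean above 1 FPKM, with Benjamini-Hochberg adjustment over all of them and a threshold of 0.05. Over all entries 84 were higher in eworo (1.73%) and 44 lower (0.908%), and among 40 chromosome 4 entries 0 were higher and 0 lower. At an unadjusted p under 0.05 there were 3 of 40 (7.50%), against 15.3% of all entries. The libraries of the strains did not overlap at 1 chromosome 4 entry higher in eworo (2.50%, against 12.8% of all entries) and 2 lower (5.00%, against 10.5%). The first was CG1909, with 1.27, 1.34 and 1.93 FPKM in OreR and 2.70, 2.68 and 3.26 in eworo. The log2 difference was 0.63 ± 0.18 (SE, limma adjusted p = 0.188, 3 libraries per strain). Rad23, a DNA repair and ubiquitin shuttle gene, had 127, 125 and 139 FPKM in OreR and 110, 112 and 116 in eworo. Its log2 difference was −0.20 ± 0.07 (SE, limma adjusted p = 0.292).

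For apolpp, the lipophorin precursor made by fat body, the values were 12.1, 2.99 and 19.3 FPKM in OreR and listed at 0 in all eworo libraries. The log2 difference on the log2(FPKM + 1) scale was −3.34 ± 0.61 (SE, limma adjusted p = 0.0685), and without OreR replicate 2 or with a pseudocount of 0.1 the entry was called lower. The authors' value per strain was 13.8 FPKM in OreR and 9.66 in eworo, so the zeros do not show that the gene was silent. It is also 1 of the 3 fat body markers, whose sum ranged from 236 to 317 FPKM in OreR and from 157 to 329 in eworo. The gene overlaps Zyx, a focal adhesion gene, whose entry, joined to CaMKII in part of the libraries, was likewise listed at 0 in all 3 eworo libraries and at 38.4 to 83.0 FPKM in OreR, while the authors' values were 75.9 in OreR and 66.4 in eworo. For CG32850 (Rnf11) the direction was opposite, with 0 in all OreR libraries and 78.6, 0 and 17.6 FPKM in eworo, and the authors' values were 14.8 in OreR and 19.2 in eworo. It was called higher without eworo replicate 2. Bt had 3.17, 1.63 and 4.32 FPKM in OreR and 0.161, 2.99 and 0.320 in eworo (log2 difference −1.08 ± 0.56, SE, limma adjusted p = 0.399). The summed muscle markers, given above, were lower at both ends of their range in eworo. So were the leg (369 to 484 FPKM in OreR, 233 to 416 in eworo), epidermal, tracheal, haemocyte and wing markers. The neuronal and fat body markers were not, so this was not particular to muscle.

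The chromosome 4 entries moved together from library to library. Their median log2(FPKM + 1), relative to the mean of 6 libraries, was 0.25, −0.39 and 0.72 in OreR replicates 1 to 3 and −0.95, 0.44 and 0.04 in eworo replicates 1 to 3. Over the 4808 entries of other chromosomes it lay between −0.01 and 0.05. OreR replicate 2 had the lowest OreR value at 32 of 40 entries (80.0%, against 29.4% elsewhere), and eworo replicate 1 the lowest eworo value at 36 of 40 (90.0%, against 31.2%). Long entries elsewhere shifted the same way in eworo, less far. For 979 entries spanning 10 kb or more on other chromosomes the medians were −0.37 in eworo replicate 1 and 0.02 in OreR replicate 2, against −1.03 and −0.64 for the 23 such entries on chromosome 4. The 17 shorter chromosome 4 entries had −0.74 and −0.38.

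**Figure D5:**
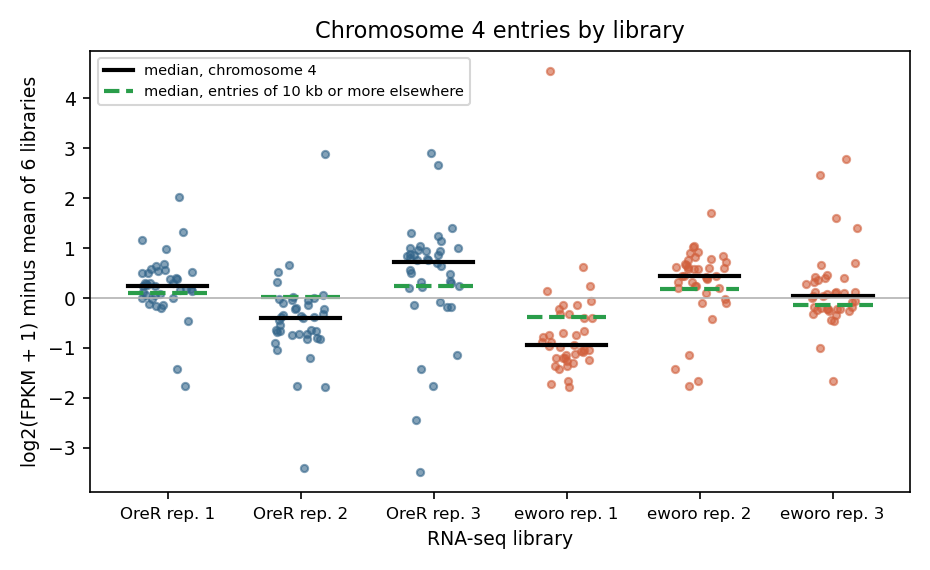
log2(FPKM + 1) of the 40 tested chromosome 4 entries in each RNA-seq library, minus the entry's mean over 6 libraries. Black bars are the chromosome 4 medians, from −0.95 in eworo replicate 1 to 0.72 in OreR replicate 3, and dashed bars the medians of the 979 entries of 10 kb or more elsewhere.

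The median log2 difference between strains over the 40 entries was −0.23 (95% interval of the median −0.34 to −0.13), against −0.01 over all entries and −0.24 over long entries elsewhere. Single libraries set this value. It was 0.18 without eworo replicate 1, 0.05 without OreR replicate 3, −0.67 without eworo replicate 2 and −0.62 without OreR replicate 2, so no direction between the strains is given for the chromosome.

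Among the gene lists none of the tested members passed. Calls were made at 0 of 4 transcription factor, 0 of 5 signalling and 0 of 3 neuronal genes. The muscle and cytoskeleton list gave 0 of 1 and the housekeeping list 0 of 7. Over all entries 1.73% were called higher and 0.908% lower, so 0 calls in lists this small say little. Medians of the log2 difference were −0.34, −0.15, 0.09, −1.08 and −0.21 in that order. The median over all tested chromosome 4 entries, set by single libraries, was −0.23, and that over all entries −0.01. In the signalling list Crk, an adaptor protein gene, had 95.8 to 129 FPKM in OreR and 82.2 to 112 in eworo. Ephrin, a guidance ligand, had 14.8 to 50.0 and 11.8 to 43.3, PlexA 12.3 to 54.5 and 8.58 to 43.6, and mav, a TGF-beta ligand, 17.2 to 61.3 and 19.5 to 45.2. Of the neuronal genes, unc-13 had 19.7 to 53.6 FPKM and 5.25 to 31.6, and mGluR 0.221 to 0.405 and 0.239 to 0.684. All these ranges overlapped between strains.

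Of 14 genes for proteins that coat or modify chromosome 4 chromatin 7 could be tested with 0 called. Over all entries 1.73% were called higher and 0.908% lower, so 0 calls among 7 genes say little. The median log2 difference of the 7 was −0.44, beside −0.01 over all entries and −0.24 over entries of 10 kb or more on other chromosomes. Kdm4A, a histone demethylase gene, was listed at 0 in 5 libraries and at 52.3 FPKM in eworo replicate 3, from a joined entry, and the authors' values were 8.61 and 8.34. Pof had 12.2, 22.3 and 0 FPKM in OreR and 25.1, 19.6 and 28.0 in eworo (log2 difference 1.89 ± 1.2, SE, limma adjusted p = 0.469), and the authors' values were 12 and 14.5. The gene of HP1a had 445, 320 and 347 FPKM in OreR and 376, 311 and 357 in eworo, from entries joined to neighbours in part of the libraries. HP4 had 124, 94.2 and 118 FPKM in OreR and 97.4, 78.5 and 93.5 in eworo (log2 difference −0.31 ± 0.14, SE, limma adjusted p = 0.351). The other tested members were Su(var)3-7, HP5, wde, G9a and JIL-1, with differences of −0.22 to −0.50. Their SE ran from 0.11 to 0.51 and their limma adjusted p from 0.37 to 0.608.

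Genes with a boundary peak had a higher median FPKM, as on the arms. In OreR the median was 29.9 FPKM over 64 genes with such a peak (95% interval 11.4 to 44.0) and 3.82 over 15 without (0.156 to 31.7). In eworo it was 25.5 (15.3 to 35.2) and 0.482 (0.0224 to 1.92). The OreR intervals overlapped. On the arms the OreR medians were 16.4 to 18.4 FPKM with and 0.0369 to 0.0555 without a boundary peak. The eworo medians there were 14.8 to 17.2 and 0.0652 to 0.0867. The chromosome 4 genes without one include Zyx, listed at 0 in all eworo libraries, and CaMKII, listed at 0 in all libraries of both strains. They also include Gat and CG11155, with values from joined entries. Their OreR means were 37.8 and 74.9 FPKM, against authors' values of 0.678 and 5.37. Over single-gene entries the medians were 18.6 and 1.62 FPKM in OreR and 17.8 and 0.984 in eworo, with 39 and 10 genes. A mean above 1 FPKM was seen for 81.2% and 87.5% of the genes with a boundary peak, against 74.0% to 76.8% on the arms. Of the genes without one 9 of 15 in OreR (60%, 35.7 to 80.2) and 6 of 15 in eworo (40.0%, 19.8 to 64.3) had a mean above 1 FPKM, against 21.3% to 26.0% on the arms. CaMKII, a synaptic kinase gene, had no boundary peak, and the authors' values for it were 59.3 FPKM in OreR and 61.5 in eworo. Spearman's rho between peaks per 10 kb and mean FPKM across the 79 genes was 0.260 in OreR and 0.384 in eworo. For the highest boundary pileup it was 0.117 and 0.155 across 64 genes. Genes share neighbours, entries and lists and are not replicates, so these are descriptions.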

How the data were processed

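Per the labels, T2 legs gave 3 ATAC-seq and 3 RNA-seq samples per strain. For ATAC-seq the authors used Bowtie2, SAMtools and MACS2 (2.1.1.20160309 in the list header) on pooled samples, with 1 tag per position, a 50-bp extension and a q cutoff of 0.01. The deposited lists give pileup (a coverage signal in tags), the fold enrichment ratio and −log10 q. Tags after filtering were 29.5% of 193178857 in OreR and 31.7% of 170109980 in eworo. For RNA-seq the authors aligned stranded paired reads to genome release 6.12 with TopHat2 2.1.1 and made FPKM values per library with Cufflinks 2.2.1 and per strain with Cuffdiff. Whether strand entered the counting was not given in the sources used here, and FPKM keeps no read depth.

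Gene names, positions and biotypes came from RefSeq (Release 6 assembly). This table has no strand, so distances ran to the nearer gene boundary, although the design named gene starts, and no sequence was analysed. Densities have exact Poisson intervals, shares Wilson intervals and medians order-statistic intervals, all at 95% and for counting error only. FPKM was scaled by median ratios and tested with limma 3.58.1 (R 4.3.3) as log2(FPKM + 1), for entries with a mean above 1 FPKM, after a check on simulated data. The labels do not say that replicates were independent cultures, so p-values measure the spread between these samples. Other steps used Python 3.11.15 and scipy 1.17.1. Columns of the authors' own strain comparison (fold changes and p-values) were not used.

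Members and gene lists were chosen with earlier results of these data known. The rule named the 10 highest, 5 longest and 5 highest unshared peaks of each strain, the boundary peaks of the transcription factor genes, entries past the threshold, the 10 genes of highest FPKM, the 5 largest non-overlapping rises and falls, and list members. Alternatives changed the q limit, overlap, boundary distance, pseudocount, filter, scaling, joined entries, replicate block and replicates.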

Additional observations from a re-analysis of the deposited data

Results flagged for a closer look

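Outside the named genes, an unnamed transcript of 238 bp between dati and lgs (4:434506-434743) had 12.9, 37.8 and 30.4 FPKM in the eworo libraries and no entry in any OreR library. The authors' values for it were 24.6 FPKM in eworo and 0.141 in OreR, and no peak lay within 500 bp in either strain. A second unnamed transcript of 469 bp, past Cadps (4:1273964-1274432), had 0.862, 2.21 and 0.627 FPKM in eworo and no OreR entry, with authors' values of 1.23 in eworo and 0.383 in OreR. Both stood out because they belong to no gene of the annotation and were listed in all libraries of 1 strain alone. They were outside the test between strains.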

How the results depend on the processing

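Of 191 alternatives over 32 results, 141 kept their direction and side of the threshold or moved little, 30 moved, 12 weakened and 8 strengthened. Among those that moved, the density ratios and the eworo to OreR ratio crossed 1 and the chromosome 4 median log2 difference crossed 0, as given next. With a −log10 q of at least 10 the values (OreR, then eworo) were 1.096 and 1.019 for the density ratio to the arms, 232 and 227 bp for median length, 71 and 71 for pileup, 2.87 and 2.986 for fold enrichment, 86.08% and 71.58% shared, and 58.23% and 53.68% at gene boundaries. With that limit 13.68% of eworo peaks lay outside genes and the eworo to OreR ratio was 1.203. Shared OreR peaks alone had medians of 166.5 bp, a pileup of 61.5 and a fold enrichment of 2.378. With summits within 100 bp 73.29% of OreR and 82.17% of eworo peaks were shared, and 83.57% of eworo peaks with 50% of each peak. Boundary shares were 21.43% and 24.48% at 250 bp and 45.96% and 48.25% at 1000 bp. With a pseudocount of 0.1, 1 chromosome 4 entry was lower in eworo (apolpp, −6.48, limma Benjamini-Hochberg adjusted p = 0.0188), and with joined entries shared out also 1 (Zyx), with 69 lower over all chromosomes. With a mean above 5 FPKM 47 entries were higher and 24 lower over all chromosomes. Without a filter the chromosome 4 median log2 difference was −0.02. Spearman's rho of peak density and FPKM in OreR was 0.3987 over single-gene entries. With the replicate block 14 entries were higher and 13 lower over all chromosomes, but same-numbered samples did not deviate together (correlations −0.0372, −0.109 and 0.0504), so they share only a number. Leaving out single libraries gave 37 to 93 higher and 23 to 60 lower entries over all chromosomes, 0 to 1 of each on chromosome 4 (CG32850 without eworo replicate 2, apolpp without OreR replicate 2), and a chromosome 4 median of −0.67 to 0.18 (above 0 without eworo replicate 1, 0.18, and without OreR replicate 3, 0.05). Covered bases for the eworo to OreR ratio, pileup limits and a −log10 q of at least 10 in 1 list alone were added after seeing the data. Sequence composition and its 200-base alternative were not run.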

Other observations

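Past the last protein-coding gene the authors' assembly held a long unnamed locus (4:1274656-1307310). It had entries of 6.76 FPKM in OreR replicate 2, 4.79 in OreR replicate 3 and 15.6 in eworo replicate 3, and none in the other libraries. A further unnamed transcript near the end (4:1319884-1320115) had 4.02 FPKM in eworo replicate 1 and no other entry. An unnamed locus over lncRNA:CR46488 (4:180756-182951) had 20.8, 11.7 and 27.1 FPKM in OreR and 24, 9.48 and 15.1 in eworo, and held 4 OreR peaks and 2 eworo peaks.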
